A study of Rattus norvegicus with 9 samples.

Results

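Nuclear-encoded genes of the mitochondrial respiratory chain and of ATP synthase were examined in 9 RNA-seq libraries of rat vascular smooth muscle cells. The genes were chosen by symbol (Nduf followed by a, b, c, s or v and a digit, Uqcr, Cox4 to Cox8, Atp5, and Sdha to Sdhd) and by a mean level of at least 1 FPKM over the 9 libraries. FPKM counts the fragments of a gene relative to the length of its transcript and to the size of the library. Of 26407 rows in the table, 91 had such a symbol, and 82 of these reached that level, among 11376 genes that did. Complex I (NADH dehydrogenase) had 35 of the 82, complex II (succinate dehydrogenase) 4, complex III (cytochrome c reductase) 9, complex IV (cytochrome c oxidase) 14 and complex V (ATP synthase) 16. The other 4, namely Cox7a2l, Cox7a2l2, Atp5s and Atp5sl, have symbols of this form but are no subunits of a complex or are of uncertain kind. Ndufa4 and Ndufa4l2 were placed in complex IV, where the NDUFA4 protein is now counted.

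The cells were wild-type S31 cells, primary vascular smooth muscle cells whose source was microvessels of the heart in male rats of the Wistar Kyoto strain. All of them spent 48 h without serum first. The 3 control libraries (columns LH-NS) came from cells that then had serum-free medium with no added factor for 24 h. The records and the column names disagree on the other 6 libraries. The 3 IGF-NS columns are named by records titled PDGF-BB (recombinant rat protein, 25 ng/ml, harvest at 48 h), and the 3 PDGF-NS columns by records titled IGF-1 (recombinant human protein, 25 ng/ml, harvest at 24 h). The sets are therefore called by their columns, and no agent is assigned to either. If the record times hold, the IGF-NS libraries differ from the other 6 in time as well as in agent, and time and agent cannot be told apart. Whether the 3 libraries of a set stem from different cultures is not stated, and a p-value here rests on the spread among these libraries alone, which may be technical.

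The respiratory chain passes electrons from NADH and succinate through complexes I to IV to oxygen and pumps protons across the inner mitochondrial membrane. ATP synthase lets the protons flow back and makes ATP. Most subunits are encoded in the nucleus and imported, and they assemble with a few subunits encoded in mitochondrial DNA. Contractile smooth muscle cells of vessels use oxidative phosphorylation alongside glycolysis, and growth factors such as PDGF and IGF-1 drive these cells towards growth.

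The promoters of these genes are known as targets of the nuclear respiratory factor NRF1, of the ETS-family factor GABP (also called NRF2), of YY1 and of the oestrogen-related receptor ERRA. All 82 rows matched a RefSeq gene, 78 genes in all, and 68 of these genes have a promoter of 300 bases (250 before the start site and 50 after it, assembly GRCr8) in the RefSeq table. Searched on both strands were the NRF1 core palindrome (in capitals in the Atp5o promoter, before its start site), TGCGCA for a shorter NRF1 site that can share 5 letters with the core, CCGGAAG for GABP and other ETS factors, AAGATGGC for YY1 and TCAAGGTCA for ERRA. At least 1 of the 5 was present in 43 of the 68 promoters (63.2%), in 35.5% of the 8469 promoters of genes tested here and in 18.6% of all 27457 promoters. The YY1 letters were in 16 of the 68 (23.5%), against 5.96% of promoters of genes tested, and in 11 of the 68 (16.2%) they began after the start site, against 3.18%. The shorter NRF1 letters were in 20 (29.4% against 14.9%), the GABP letters in 19 (27.9% against 19.6%), the NRF1 core in 4 (5.88% against 2.2%) and the ERRA letters in 2 (2.94% against 0.189%). These are matches of letters, not sites shown to be bound.

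**Figure D1:**
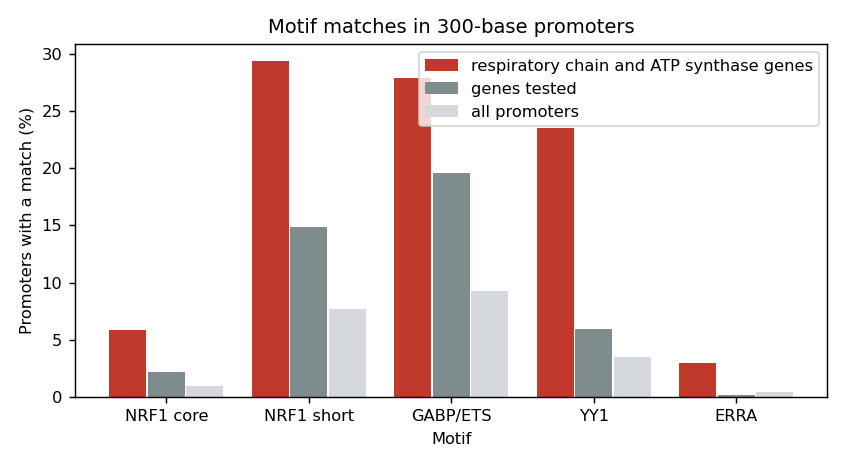
Share of promoters (percent, vertical axis) with a match to each motif (horizontal axis), for the 68 respiratory chain and ATP synthase genes with a promoter in the RefSeq table, for genes tested and for all promoters. "NRF1 short" is TGCGCA. The set has the highest share for each of the 5 motifs, with the YY1 letters in 23.5% against 5.96% of genes tested.

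Promoters of 6 genes that recur below are shown, with matches in capitals. Ndufs4 encodes an accessory subunit of complex I (chr2:47794865-47795164, minus strand), and its YY1 letters begin at base 5 after the start. Atp5o encodes a stalk subunit of ATP synthase (chr11:44657434-44657733, minus strand) and has the NRF1 core before the start and the YY1 letters after it. Uqcrh encodes the hinge protein of complex III (chr5:134790833-134791132, minus strand) and has the GABP letters. Ndufa4l2, a relative of Ndufa4 known to be induced by low oxygen (chr7:65241919-65242218, plus strand), has the YY1 letters across the start. Ndufc1, an accessory subunit of complex I (chr2:137601686-137601985, minus strand), and COX6A2, the heart and skeletal muscle form of a complex IV subunit (chr1:192219667-192219966, minus strand), have none of the 5 in this window.
Ndufs4: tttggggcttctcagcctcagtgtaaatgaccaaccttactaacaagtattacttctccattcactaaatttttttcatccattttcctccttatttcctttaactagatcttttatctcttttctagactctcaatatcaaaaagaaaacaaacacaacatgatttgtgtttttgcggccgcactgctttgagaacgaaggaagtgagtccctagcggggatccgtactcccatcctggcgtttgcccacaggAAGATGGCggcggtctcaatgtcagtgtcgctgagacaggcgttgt
Atp5o: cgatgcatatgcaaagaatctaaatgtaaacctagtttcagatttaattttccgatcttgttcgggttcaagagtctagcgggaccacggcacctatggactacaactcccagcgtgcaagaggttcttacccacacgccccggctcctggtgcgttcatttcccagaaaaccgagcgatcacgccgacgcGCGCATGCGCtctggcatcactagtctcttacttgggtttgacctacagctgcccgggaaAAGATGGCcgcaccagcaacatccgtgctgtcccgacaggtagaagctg
Uqcrh: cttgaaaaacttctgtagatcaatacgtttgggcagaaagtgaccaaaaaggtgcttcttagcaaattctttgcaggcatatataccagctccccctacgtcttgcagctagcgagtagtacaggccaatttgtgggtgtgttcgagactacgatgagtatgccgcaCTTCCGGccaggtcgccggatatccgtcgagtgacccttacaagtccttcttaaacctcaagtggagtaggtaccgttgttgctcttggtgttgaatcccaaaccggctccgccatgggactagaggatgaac
Ndufa4l2: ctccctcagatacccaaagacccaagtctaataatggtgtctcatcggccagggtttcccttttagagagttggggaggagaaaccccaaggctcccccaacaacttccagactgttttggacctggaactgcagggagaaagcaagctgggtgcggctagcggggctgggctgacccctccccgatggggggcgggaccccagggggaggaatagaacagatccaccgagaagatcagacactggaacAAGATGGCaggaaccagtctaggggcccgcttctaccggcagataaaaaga
Ndufc1: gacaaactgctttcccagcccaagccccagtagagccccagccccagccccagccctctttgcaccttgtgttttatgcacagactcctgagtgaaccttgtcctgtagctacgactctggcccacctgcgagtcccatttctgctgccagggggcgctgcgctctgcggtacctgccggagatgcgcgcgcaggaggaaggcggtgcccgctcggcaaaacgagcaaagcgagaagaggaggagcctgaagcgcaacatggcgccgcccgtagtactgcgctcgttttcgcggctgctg
COX6A2: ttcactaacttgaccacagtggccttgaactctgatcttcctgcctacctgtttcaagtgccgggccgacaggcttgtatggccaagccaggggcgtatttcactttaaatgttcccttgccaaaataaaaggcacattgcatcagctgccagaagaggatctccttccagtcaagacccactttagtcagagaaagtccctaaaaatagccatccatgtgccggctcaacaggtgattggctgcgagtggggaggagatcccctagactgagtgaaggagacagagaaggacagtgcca

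The genes that rose and the others are set side by side here, with no test. Of the genes with a promoter, 21 had a row that rose against control in at least 1 treated set, and 13 of these (61.9%) had a match. Of 49 with a row that rose in neither, 31 (63.3%) had one. Genes listed on more than 1 row (Ndufv3 and Atp5f1) can count on both sides.

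The summed FPKM of a library lay between 616765 and 748000 and the read depth is unknown. The 82 genes took 2.74 to 2.88% of the sum in control libraries, 3.14 to 3.58% in IGF-NS libraries and 3.00 to 3.37% in PDGF-NS. The sum of the 8 smooth muscle markers was 3480 to 4620 FPKM in control libraries, 931 to 1040 in IGF-NS libraries and 467 to 551 in those of PDGF-NS, and 6 fell in each treated set, while Des rose in PDGF-NS (1.30, limma adjusted p = 0.000365). Of the 5 fibroblast markers, 4 rose in each treated set, among them Lum (means of 340, 1795 and 1064 FPKM in control, IGF-NS and PDGF-NS) and Dcn (11.4, 117 and 21.8). Col1a1, the other marker, had means of 2877, 3526 and 2018 FPKM and passed in no comparison. Its log2 fold changes were 0.30 and -0.52 against control, and -0.82 in PDGF-NS against IGF-NS (limma adjusted p = 0.0531). The sums of the 5, of which Col1a1 was the largest part, were 2740 to 3980, 4770 to 6120 and 2760 to 3380 FPKM. The IGF-NS call of Dpt was lost in 9 alternative settings (limma adjusted p up to 0.214), and the PDGF-NS call of Dcn in 5 (up to 0.0776). The 4 pericyte markers had sums of 57.8 to 79 FPKM (control), 81.1 to 96.7 (IGF-NS) and 146 to 163 (PDGF-NS, where ABCC9 rose), and Rgs5 was at 0. The 5 endothelial markers summed to at most 0.76 FPKM, with Cdh5 and Kdr at 0 in all 9 libraries. Of the 7 cardiomyocyte markers, Myh6 and Myh7 were at 0 throughout, and Tnnt2, at 1.07 to 21.2 FPKM, fell in PDGF-NS. Of the 4 macrophage and leukocyte markers, Ptprc was at 0 and Csf1r at 0 to 0.143 FPKM, with overlapping sets. Cd14 (17.4 to 80.1 FPKM) and Cd68 (0 to 9.37) rose in PDGF-NS. Des and Cd68 reached a mean of 1 FPKM only through the PDGF-NS libraries. The part of these markers in the results below was not tested. Within the sets, 2 libraries stood apart for the 82 genes. LH-NS-1 was below both other control libraries in 50 of the 82 (61.0%, against 40.4% of all genes tested) and above both in 19 (23.2%, against 41%). IGF-NS-3 was below both others of its set in 40 (48.8%, against 34.4%). Its gaps to its set went both ways, from -2.44 (Ndufs6) to 1.12 (ATP5G3) in log2. The 82 genes took 3.58% of its summed FPKM, the highest share of the 9 libraries. LH-NS-1 and IGF-NS-3 were each below the rest of their sets in 35 genes (42.7%, against 22.6%). The gap of LH-NS-1 to its set was widest for Cox7a2l2 (-2.13 in log2), Cox7a2 (-1.94) and Cox7c (-1.46). Across the 82 genes the gaps of the pair of libraries had a Pearson r of 0.576 and a Spearman rho of 0.705, against 0.344 and 0.479 over all genes tested. The genes share these libraries, so the correlation is a description. In bulk RNA a change in the level per cell and a change in the share of cells that express a gene cannot be told apart.

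**Figure D2:**
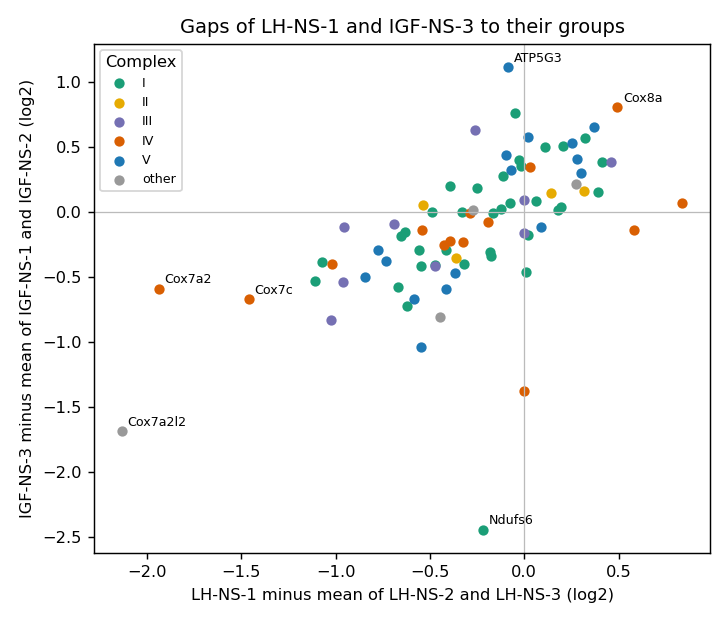
Gap of LH-NS-1 to the mean of the other control libraries (horizontal axis) against the gap of IGF-NS-3 to the mean of the others of its set (vertical axis), both in log2(FPKM + 1). Each point is 1 of the 82 genes, coloured by complex. Points at lower left, such as Cox7a2l2 and Cox7c, were low in both libraries.

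In IGF-NS against control, 16 of the 82 genes (19.5%) rose and none fell, where 17.4% of all 11376 genes tested rose and 7.48% fell (limma on log2(FPKM + 1), Benjamini-Hochberg adjusted p under 0.05, two-sided). The share that rose was near that of all genes. In either direction, 28 of the 82 genes had an unadjusted limma p under 0.05, as did 4298 of all 11376 genes tested. Below, a gene that rose or fell in a treated set did so against control. Complex I gave 9 of the 16, among them the core subunits Ndufs1 and Ndufs3, complex V gave 3, and complexes III and IV gave 2 each. The median log2 fold change of the 82 was 0.33 against 0.15 for all genes tested, and 84.1% of the 82 lay above 0 against 64.2%. Scaling the libraries by their median ratio took the median of all genes to 0.01 and that of the 82 to 0.17, with 5 higher and 1 lower, while 10.1% of all genes were then higher and 10.7% lower. Changes against control are thus on a scale where the typical gene was itself shifted upwards. The count of genes that rose was 5 without IGF-NS-1, 8 without LH-NS-1, 9 without IGF-NS-2 and 9 without LH-NS-3. Of the 16, 5, 8, 7 and 9 were still called in these fits. Without the pair LH-NS-1 and IGF-NS-3, 15 (18.3%) were higher and 1 lower, where 17.1% of all genes were higher and 8.24% lower. The median of the 82 was then 0.19 against 0.135 for all genes. Ndufa4, Ndufc1, Ndufs4 and NDUFV3 were among those that remained called under every alternative tried.

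In PDGF-NS against control, 19 of the 82 (23.2%) rose and none fell, where 20.7% of all genes tested rose and 10.2% fell. This share too was near that of all genes. Of the 82 genes, 34 had an unadjusted limma p under 0.05, as did 4860 of all 11376 genes tested. Complex IV gave 6 of its 14 genes, 1 of them Ndufa4l2, which reached the level rule only through these libraries. Without Ndufa4l2, complex IV gave 5 of 13 genes and the whole set 18 of 81. Complex I gave 8 of 35, complexes III and V 2 each, and Cox7a2l rose among the others. The median log2 fold change was 0.31 against 0.13 for all genes, with 85.4% above 0 against 60.7%. Scaling by the median ratio gave 14 higher (17.1%) and 1 lower, beside 15.4% and 14.8% of all genes, with a median of 0.19. Quantile normalization gave 15 (18.3%) and 1, beside 14.9% and 15.4% of all genes. Rescaling to one common sum gave 13 (15.9%) and 2, beside 14.9% and 14.8% of all genes. Leaving out PDGF-NS-3 gave 11 genes higher. Leaving out the pair LH-NS-1 and IGF-NS-3 gave 23 higher (28%, against 22.1% of all genes) and 1 lower (against 10.8% of all genes). The median was then 0.26 against 0.124 for all genes. Of the 19 genes, 11 remained called under every alternative they could be fitted in, among them Ndufc1, Ndufc2, Uqcrc2, Uqcrh, Ndufa4, COX6A2, Cox4i2, Cox6c and Cox7a2l. The 11 include Ndufa4l2, whose call follows from the way it entered the set. Both comparisons use the same 3 control libraries, so they are not independent. By count, 10 genes rose in both, 6 passed in the IGF-NS comparison and not in the other, 9 the reverse, and 57 passed in neither. Passing in one comparison and not in the other is not a tested difference.

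Between the treated sets few of the 82 genes differed. In PDGF-NS against IGF-NS, 6 (7.32%) were higher and 1 (1.22%) lower, where 8.33% of all genes tested were higher and 7.55% lower. The higher ones were Uqcrh and Uqcrfs1 of complex III, COX6A2, Cox4i2 and Ndufa4l2 of complex IV, and Cox7a2l. The lower one was NDUFV3 of complex I. Without Ndufa4l2, which reached the level rule only through PDGF-NS, 5 of 81 were higher. The median was 0.03 against -0.02 for all genes tested, and it was -0.11 (all genes -0.14) when libraries were rescaled to one common sum. Without PDGF-NS-3, 2 genes were higher, and 3 without PDGF-NS-2 or without IGF-NS-2.

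**Figure D3:**
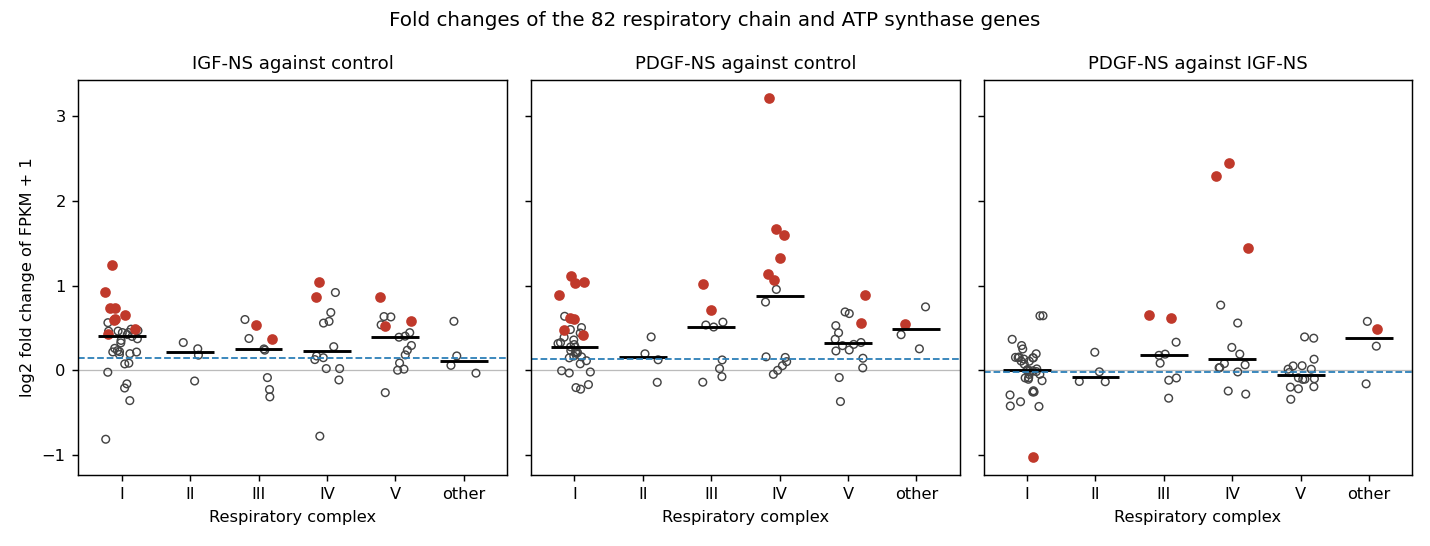
Log2 fold changes on the log2(FPKM + 1) scale (vertical axis) of the 82 genes by complex (horizontal axis) in the 3 comparisons. Filled points passed an adjusted p of 0.05 and open points did not, black bars are medians of a complex, and the dashed line is the median of all genes tested. In PDGF-NS against control, 6 of 14 complex IV genes passed (5 of 13 without Ndufa4l2), and complex II has none in any panel.

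Complex I takes electrons from NADH. Of its 28 accessory subunits, 6 (21.4%) rose in each treated set, near the 17.4% and 20.7% of all genes tested that rose.

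Ndufs3, a core subunit of the arm that faces the matrix, rose in both treated sets, with 20.7, 31.8 and 27.3 FPKM in control, 37.7, 36.9 and 37.4 in IGF-NS libraries and 35.5, 34.7 and 41.1 in PDGF-NS. Its log2 fold changes were 0.49 ± 0.15 (SE, limma adjusted p = 0.042) and 0.48 ± 0.15 (adjusted p = 0.039), and in either comparison leaving out any library except LH-NS-2 ended the call, with an adjusted p of up to 0.141. Ndufs1, the largest core subunit encoded in the nucleus, rose in IGF-NS by 0.61 ± 0.16 (adjusted p = 0.02) from 15.4, 18.4 and 20.6 FPKM to 31.6, 29.9 and 23.1, without overlap. Its adjusted p passed 0.05 when LH-NS-1, IGF-NS-1 or IGF-NS-2 was left out, with a highest value of 0.083. In PDGF-NS it was at 20.7, 25.2 and 22.5 FPKM (adjusted p = 0.15). The core subunits Ndufs7, Ndufs8, Ndufv1 and Ndufv2 did not pass in any comparison. Ndufv1, which holds the site where NADH binds, had log2 fold changes of -0.02 ± 0.18 and -0.03 ± 0.18 against control.

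Among accessory subunits, Ndufc1 had a narrow spread in IGF-NS. It was at 45.3, 36.9 and 43.0 FPKM in control, 83.2, 76.5 and 80.7 in IGF-NS libraries and 70.6, 90.1 and 102 in PDGF-NS. Both treated sets lie above control in every library and overlap each other. The log2 fold changes were 0.93 ± 0.15 (adjusted p = 0.002) and 1.04 ± 0.15 (adjusted p = 0.00062). Ndufc2, another small subunit of the membrane arm, was at 304, 311 and 317 FPKM in control and at 618, 653 and 758 in PDGF-NS (1.11 ± 0.21, adjusted p = 0.003). In IGF-NS it was spread from 317 to 614 FPKM and did not pass (0.47 ± 0.21, adjusted p = 0.13), and the test of the difference between treated sets did not pass either (adjusted p = 0.064).

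Ndufs4, a subunit needed for late assembly of the complex, was at 12.6, 13.9 and 14.7 FPKM in control, 22.7, 25.4 and 18.8 in IGF-NS libraries and 19.8, 17.3 and 18.8 in PDGF-NS. Control libraries were below every treated one. Its log2 fold change was 0.66 ± 0.14 in IGF-NS (adjusted p = 0.0077). In PDGF-NS it was 0.42 ± 0.14 (adjusted p = 0.043), and leaving out any 1 of the 6 libraries ended that call, with an adjusted p of up to 0.121. Ndufa6 rose in both sets (0.74 ± 0.22 and 0.89 ± 0.22, adjusted p = 0.036 and 0.013), as did Ndufb6 (0.60 ± 0.16 and 0.61 ± 0.16, adjusted p = 0.023 and 0.017). Ndufa10 rose in IGF-NS (0.43 ± 0.11, adjusted p = 0.018) and Ndufa8 in PDGF-NS (0.62 ± 0.18, adjusted p = 0.025). In PDGF-NS the calls of Ndufa6 and Ndufb6 were lost without PDGF-NS-3 (adjusted p = 0.052 and 0.075), and that of Ndufa8 without LH-NS-3, PDGF-NS-2 or PDGF-NS-3 (up to 0.095). In IGF-NS that of Ndufa6 was lost without LH-NS-1, IGF-NS-1 or IGF-NS-2 (up to 0.119), that of Ndufb6 without LH-NS-1, LH-NS-2, IGF-NS-1 or IGF-NS-3 (up to 0.059), and that of Ndufa10 without LH-NS-3, IGF-NS-1 or IGF-NS-2 (up to 0.072).

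NDUFV3 was the one gene of the 82 that was lower in PDGF-NS than in IGF-NS. It was at 10.1, 10.9 and 13.7 FPKM in control, 26.8, 27.6 and 31.1 in IGF-NS libraries and 10.7, 19.6 and 11.8 in PDGF-NS. The IGF-NS libraries stand above all others. The log2 fold change was 1.24 ± 0.21 in IGF-NS against control (adjusted p = 0.0026) and -1.02 ± 0.21 in PDGF-NS against IGF-NS (adjusted p = 0.0085). The symbol is on a second row in other letters, Ndufv3, with 48.2 to 58.9 FPKM in control, 57.6 to 62.5 in IGF-NS libraries and 60.5 to 69.7 in PDGF-NS, and that row did not pass (0.22 ± 0.12 and 0.33 ± 0.12). Reads could have been split between the rows, so the values of each are uncertain. The same holds for Ndufs5 and NDUFS5, Atp5f1 and ATP5F1, and Uqcrb and UQCRB. Ndufs6, an accessory subunit, was listed at 0 in IGF-NS-3 and at 2.81 to 7.15 FPKM in the other 8 libraries, and passed in no comparison.

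**Figure D4:**
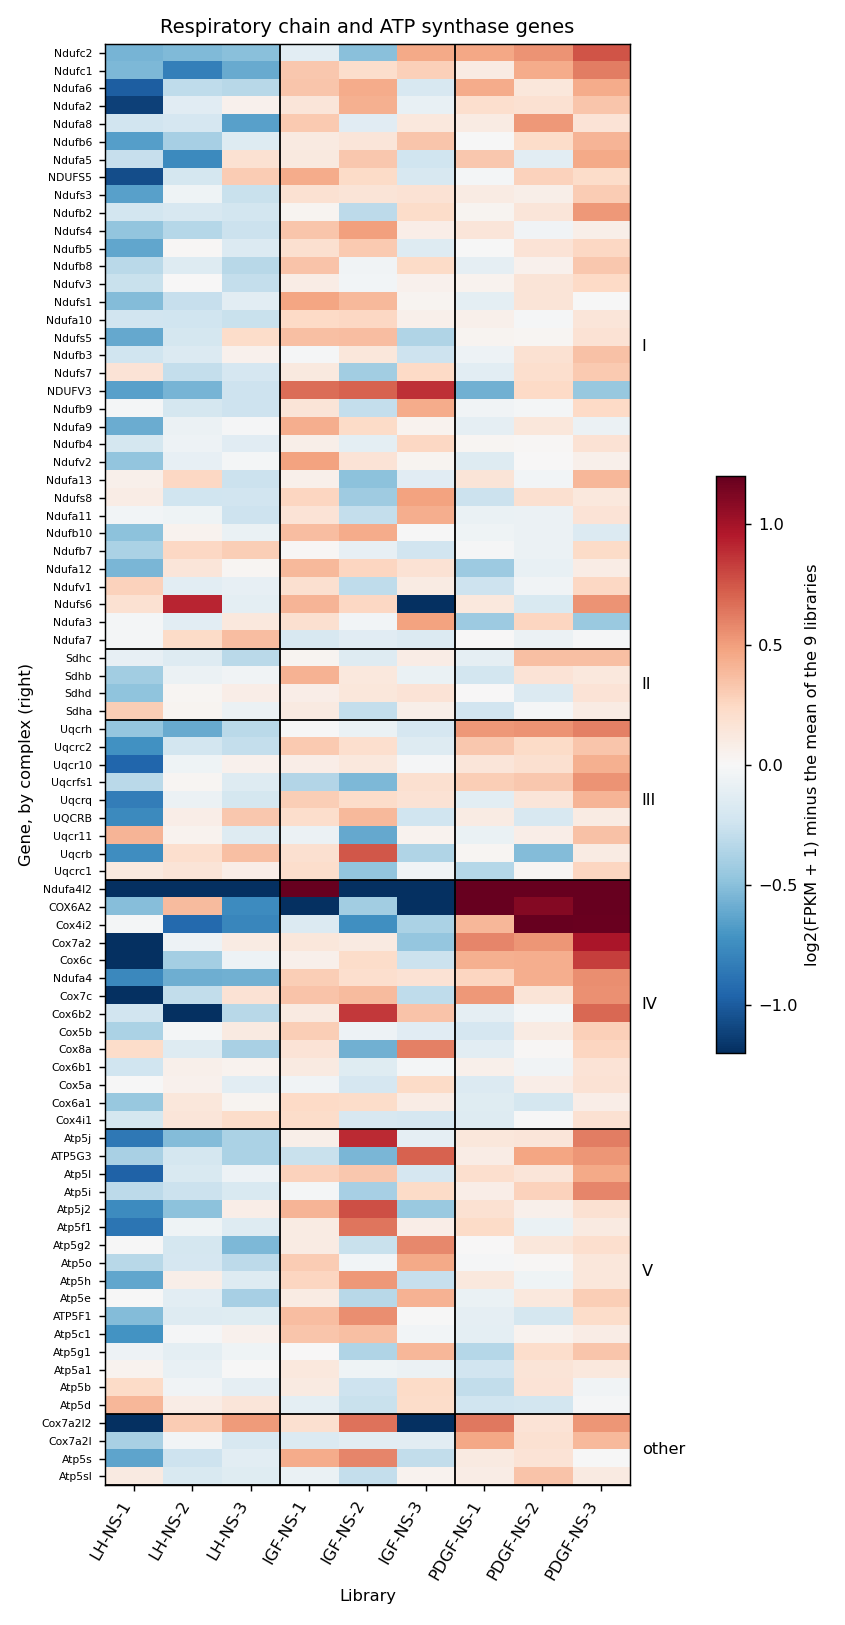
Level of genes of the set (rows, by complex) in each library (columns) as log2(FPKM + 1) minus the mean over the 9 libraries, with colours ending at 1.2 in either direction. Most rows are below their mean in the control columns, LH-NS-1 is the lowest column for many rows, and COX6A2 and Cox4i2 are highest in the PDGF-NS columns. Ndufa4l2 is high in the PDGF-NS columns and in IGF-NS-1.

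Complex II, which is also an enzyme of the citric acid cycle, gave no call in any comparison. Its flavoprotein Sdha was at 37.4 to 48.6 FPKM in control, 32.1 to 42.3 in IGF-NS libraries and 33.2 to 42.1 in PDGF-NS, with overlapping sets and log2 fold changes of -0.12 ± 0.16 and -0.14 ± 0.16. The iron-sulphur subunit Sdhb (0.33 ± 0.17 and 0.20 ± 0.17) and the membrane anchors Sdhc (0.18 ± 0.15 and 0.40 ± 0.15) and Sdhd (0.26 ± 0.16 and 0.13 ± 0.16) did not pass. Changes near that of Sdhc in PDGF-NS were called for some other genes of the set, such as Ndufs4 in PDGF-NS (0.42). With 3 libraries a set, the lack of calls in complex II does not show a lack of change.

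Complex III passes electrons from ubiquinol to cytochrome c. Uqcrh, its hinge protein, separated the 3 sets: 503, 456 and 555 FPKM in control, 692, 658 and 605 in IGF-NS libraries, and 998, 1008 and 1056 in PDGF-NS. No library of one set reached another set. Its log2 fold change was 1.02 ± 0.12 in PDGF-NS against control (adjusted p = 0.00021) and 0.65 ± 0.12 in PDGF-NS against IGF-NS (adjusted p = 0.0052). In IGF-NS against control it was 0.37 ± 0.12 with an adjusted p of 0.0499, and this call was lost under median ratio scaling (adjusted p = 0.257) and on leaving out any library except IGF-NS-3 (up to 0.164).

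Uqcrc2, a core protein that holds no electron carrier, was at 32.6, 46.9 and 44.7 FPKM in control, 68.3, 63.1 and 49.0 in IGF-NS libraries and 68.7, 64.6 and 69.3 in PDGF-NS. Each treated library was above each control library. The changes were 0.53 ± 0.17 (adjusted p = 0.042) and 0.71 ± 0.17 (adjusted p = 0.0095). The IGF-NS call was lost without LH-NS-1, LH-NS-3, IGF-NS-1 or IGF-NS-2 (adjusted p up to 0.151). Its partner Uqcrc1 did not pass (-0.22 ± 0.19 and -0.14 ± 0.19).

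The Rieske protein Uqcrfs1, which carries the iron-sulphur cluster, was at 72.7, 93.0 and 82.1 FPKM in control, 71.3, 62.5 and 104 in IGF-NS libraries and 112, 114 and 133 in PDGF-NS. It was higher in PDGF-NS than in IGF-NS (0.62 ± 0.19, adjusted p = 0.0485) and did not pass against control (0.54 ± 0.19, adjusted p = 0.052). The first call was lost on leaving out any PDGF-NS library, IGF-NS-1 or IGF-NS-2, with an adjusted p of up to 0.171. The median over the 9 genes of complex III moved from 0.51 to 0.25 in PDGF-NS, and from 0.25 to -0.08 in IGF-NS, without LH-NS-1.

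Complex IV hands electrons to oxygen. Ndufa4, a subunit at its edge, was at 173, 197 and 199 FPKM in control, 365, 342 and 336 in IGF-NS libraries and 356, 403 and 437 in PDGF-NS. Both treated sets stand well above control and overlap each other. The log2 fold changes were 0.87 ± 0.12 (adjusted p = 0.001) and 1.06 ± 0.12 (adjusted p = 0.00016), or 1.83-fold and 2.1-fold by the means.

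Several complex IV subunits exist in alternative forms that tissues use in place of the common one. COX6A2, the form of heart and skeletal muscle, was at 33.4, 62.8 and 28.2 FPKM in control, 15.6, 35.8 and 20.1 in IGF-NS libraries and 143, 105 and 133 in PDGF-NS. Every PDGF-NS library was above every other. It rose by 1.67 ± 0.33 against control (adjusted p = 0.004) and was higher than in IGF-NS by 2.44 ± 0.33 (adjusted p = 0.00084), 3.07-fold and 5.34-fold by the means. As a share of COX6A2 and Cox6a1 together, its FPKM made up 3.04 ± 1.01% in control, 1.49 ± 0.627% in IGF-NS libraries and 8.91 ± 1.21% in PDGF-NS (SD, n = 3). Cox6a1, the common form, was at 1197 to 1633 FPKM in 8 libraries and at 1008 in LH-NS-1, and passed in no comparison. The cardiomyocyte markers Myh6 and Myh7 were at 0 throughout, and the summed level of the 7 cardiomyocyte markers was 10.6 to 23.2 FPKM in control and 1.96 to 5.33 in PDGF-NS. Most of that sum was Tnnt2, at 21.2, 9.73 and 14 FPKM in control and 3.01, 1.075 and 3.95 in PDGF-NS. Ryr2, at very low levels, went the other way, with means of 0.035 and 0.0867 FPKM. The part of these markers in the COX6A2 values was not tested.

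Cox4i2, a form known from lung and for its response to low oxygen, was at 2.21, 0.702 and 0.895 FPKM in control, 1.90, 0.953 and 1.5 in IGF-NS libraries and 3.28, 7.86 and 6.43 in PDGF-NS. The PDGF-NS libraries were the highest of the 9. Its change was 1.59 ± 0.32 against control (adjusted p = 0.0043) and 1.44 ± 0.32 against IGF-NS (adjusted p = 0.013), the second lost without PDGF-NS-2 or PDGF-NS-3 (adjusted p = 0.056 and 0.06). It stayed a minor form, with 0.206 ± 0.167% of the FPKM of Cox4i1 and Cox4i2 in control, 0.232 ± 0.0541% in IGF-NS libraries and 0.89 ± 0.327% in PDGF-NS (SD, n = 3).

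Ndufa4l2 was listed at 0 in each control library, at 5.75, 0 and 0 FPKM in IGF-NS and at 5.32, 11.2 and 9.32 in PDGF-NS. It belongs to the set only through its PDGF-NS values, since the other 6 libraries averaged 0.958 FPKM, below the level rule of 1. Its calls in PDGF-NS (limma adjusted p = 0.0036 against control and 0.033 against IGF-NS) follow from that choice and are given as a description, with no fold against a set listed at 0. IGF-NS-1 reached the PDGF-NS range, and the call against IGF-NS was lost without IGF-NS-2, IGF-NS-3, PDGF-NS-2 or PDGF-NS-3 (adjusted p up to 0.106). Cox6b2, a form known from testis, rose in IGF-NS (1.05 ± 0.33, adjusted p = 0.041) from 2.59, 0.719 and 2.34 FPKM to 3.52, 6.56 and 4.32. That call was lost on leaving out LH-NS-2, LH-NS-3 or any IGF-NS library (adjusted p up to 0.131), and PDGF-NS did not pass (2.91, 3.15 and 5.78 FPKM). Of the 3 alternative forms other than Ndufa4l2, 1 thus rose in IGF-NS libraries (Cox6b2) and 2 in PDGF-NS (COX6A2 and Cox4i2), and the same 2 were higher in PDGF-NS than in IGF-NS. Of the 4 macrophage and leukocyte markers, Cd14 and Cd68 were also higher in PDGF-NS, while Ptprc was at 0 and Csf1r at 0 to 0.143 FPKM. Their sum was 43.6 to 89.5 FPKM against 17.6 to 27 in control, most of it Cd14. Cd68 reached the level rule only through PDGF-NS, with 9.37, 1.39 and 2.13 FPKM there. The part of these markers in these results was not tested.

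**Figure D5:**
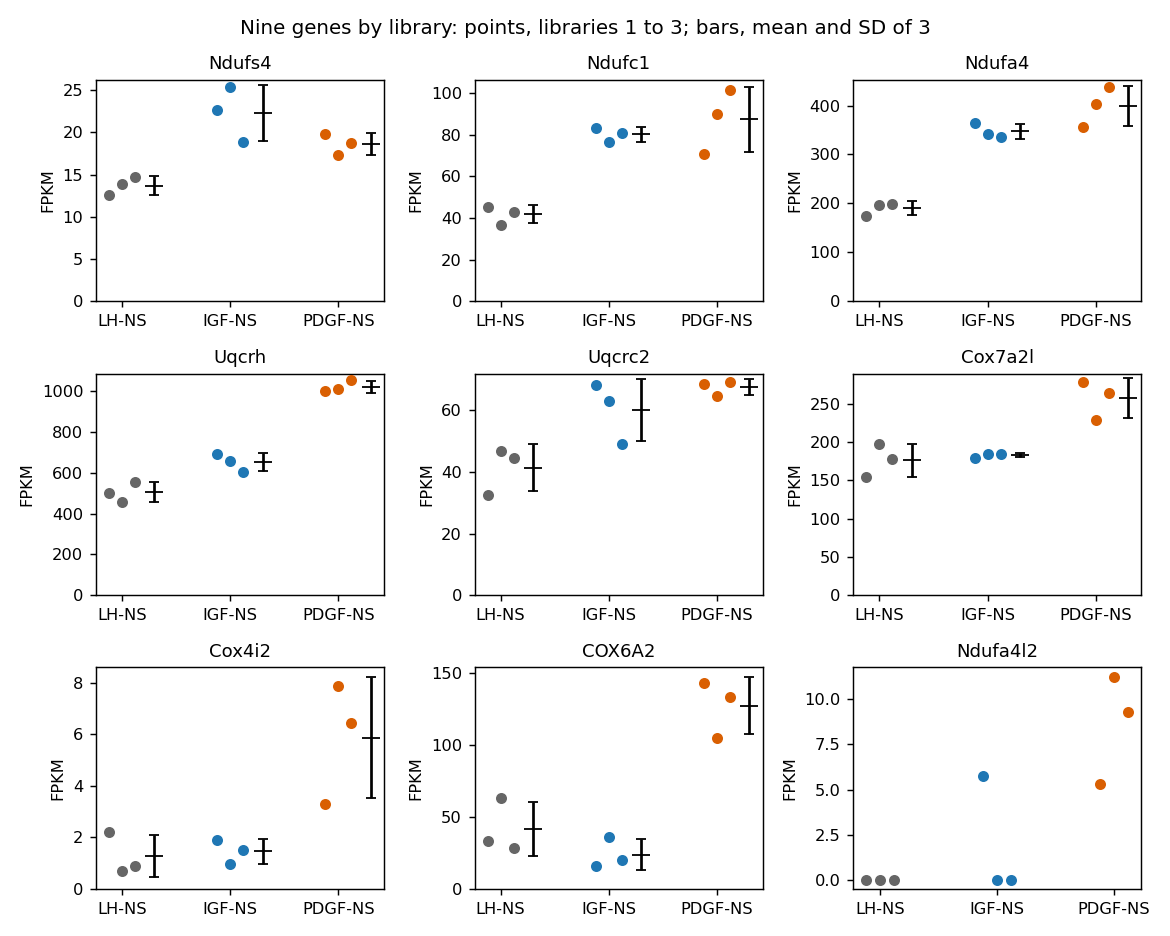
FPKM (vertical axes, from 0) of 9 genes in each library, with 3 points a set and, beside them, the mean and SD of 3. No mean is drawn for Ndufa4l2, which was listed at 0 in 5 libraries. Ndufs4, Ndufc1, Ndufa4, Uqcrh and Uqcrc2 were above control in every treated library, and Cox7a2l, Cox4i2 and COX6A2 in every PDGF-NS library.

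Of the common complex IV subunits, Cox6c was at 59.0, 107 and 136 FPKM in control, 148, 165 and 118 in IGF-NS libraries and 191, 192 and 252 in PDGF-NS. It rose in PDGF-NS (1.14 ± 0.27, adjusted p = 0.01) and did not pass in IGF-NS (0.58 ± 0.27, adjusted p = 0.15). Cox7a2 rose in PDGF-NS by 1.33 ± 0.45 (adjusted p = 0.046) from 6.00, 24.4 and 27.3 FPKM to 38.9, 37.3 and 51.2. Leaving out any PDGF-NS library ended that call (adjusted p up to 0.137), as did most other settings. LH-NS-1 was the lowest control library for both, as it was for Cox7c (49.3 FPKM against 117 and 162), which did not pass. Cox4i1, Cox5a and Cox5b did not pass. Cox4i1 had log2 fold changes of -0.11 ± 0.17 and -0.05 ± 0.17, Cox5a 0.02 ± 0.15 and 0.06 ± 0.15, and Cox5b 0.13 ± 0.18 and 0.16 ± 0.18. Cox8a, the gene with the highest FPKM of the set at 1902 to 4299, ranged widely within control and IGF-NS and did not pass. The median of the 14 complex IV genes in PDGF-NS was 0.88, and 0.81 over the 13 other than Ndufa4l2. It was 0.58 without LH-NS-1 and 0.16 when only the 11 genes that average 5 FPKM or more were kept.

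Complex V, ATP synthase, has a catalytic head, a rotor with a ring of c subunits, and a stalk that holds the head in place. The catalytic subunits did not pass: Atp5a1 had 0.02 ± 0.13 and 0.03 ± 0.13 against control, and Atp5b 0.00 ± 0.17 and -0.08 ± 0.17, with 531 to 669 FPKM in control, 481 to 670 in IGF-NS libraries and 466 to 638 in PDGF-NS. The genes for the c ring, Atp5g1, Atp5g2 and ATP5G3, did not pass either. The calls in this complex were all in the stalk and membrane part.

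Atp5j, coupling factor F6 of the stalk, was at 40.6, 51.9 and 57.1 FPKM in control, 78.5, 139 and 69.0 in IGF-NS libraries and 82.2, 82.6 and 115 in PDGF-NS. Each treated library was above control. It rose by 0.87 ± 0.26 (adjusted p = 0.033) and 0.89 ± 0.26 (adjusted p = 0.025), and the first call was lost without LH-NS-1, LH-NS-2, IGF-NS-1 or IGF-NS-2, the second without LH-NS-1, LH-NS-2 or PDGF-NS-3 (adjusted p up to 0.098). Atp5o rose in IGF-NS (288, 316 and 291 to 448, 355 and 498 FPKM, 0.53 ± 0.14, adjusted p = 0.022), and so did ATP5F1 (0.58 ± 0.18, adjusted p = 0.041). Atp5i rose in PDGF-NS (0.56 ± 0.18, adjusted p = 0.036). The call of Atp5o was lost without LH-NS-3, IGF-NS-1 or IGF-NS-3 (adjusted p up to 0.08), that of ATP5F1 without any library except IGF-NS-3 (up to 0.131), and that of Atp5i without any except PDGF-NS-1 (up to 0.14).

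Cox7a2l, a factor that joins complexes III and IV into supercomplexes, was at 154, 197 and 177 FPKM in control, 180, 185 and 184 in IGF-NS libraries and 279, 229 and 265 in PDGF-NS. Only the PDGF-NS libraries stand apart. It rose in PDGF-NS by 0.55 ± 0.13 (adjusted p = 0.0096) and was higher there than in IGF-NS by 0.49 ± 0.13 (adjusted p = 0.029), a call lost on leaving out any library of either set except PDGF-NS-2 (adjusted p up to 0.11). In IGF-NS it had 0.06 ± 0.13. Cox7a2l2, a relative of it, was at 11.8 FPKM in LH-NS-1 and 16.7 in IGF-NS-3 and at 46.3 to 65.6 in the other 7 libraries, and did not pass.

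Genes that serve the complexes were counted from lists of 144 genes tested in all. Of these, 31 (21.5%) rose and 3 fell in IGF-NS against control, and 48 (33.3%) rose and 6 fell in PDGF-NS against control, beside 17.4% and 20.7% of all genes that rose and 7.48% and 10.2% that fell. The counts below read against the same shares. Of the 144, MP68 reached a mean of 1 FPKM only through the PDGF-NS libraries, Coq7 only through IGF-NS and Ppargc1b only through control. Their means over the other 6 libraries were 0, 0.99 and 0.82 FPKM. They enter the counts, so those counts hold genes chosen partly by the values compared. Of 42 assembly factors, 12 (28.6%) rose and 1 fell in IGF-NS libraries, and 15 (35.7%) rose and 1 fell in PDGF-NS. Tmem126b, which helps assemble the membrane arm of complex I, went from 6.56 ± 2.29 FPKM in control to 18.1 ± 5.12 and 21.4 ± 0.63 (SD, n = 3), a log2 fold change of 1.35 and 1.61 (limma adjusted p = 0.0037 and 0.00084). Ndufaf1, another complex I factor, rose by 0.89 and 0.75 (adjusted p = 0.003 and 0.0049). The complex IV factors Cmc1 (1.04 and 1.34) and Cox16 (0.86 and 1.22) rose in both sets. Cox17, a copper chaperone of complex IV, fell in both (-1.04 and -0.76, adjusted p = 0.011 and 0.034), from 55.8 ± 17.9 FPKM to 26 ± 4.71 and 31.8 ± 5.67 (SD, n = 3). The PDGF-NS call of Cox17 was lost without LH-NS-2, LH-NS-3, PDGF-NS-1 or PDGF-NS-2 (adjusted p up to 0.11).

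A list of 16 genes outside the choice above held subunits, electron carriers and related genes such as the inhibitor Atpif1. Of these, 1 (6.25%) rose in IGF-NS libraries and 5 (31.2%) in PDGF-NS. The 16 include MP68, which was at 0 outside PDGF-NS. Usmg5, a small subunit of the ATP synthase dimer, went from 195 ± 34.8 FPKM to 433 ± 20.9 and 508 ± 42.6 (SD, n = 3), by 1.16 and 1.39 (adjusted p = 0.00064 and 0.00011). Atpif1, the inhibitor that stops ATP synthase from running backwards, rose in PDGF-NS by 1.37 (adjusted p = 0.0012) and was higher there than in IGF-NS by 0.77 (adjusted p = 0.041), a call lost on leaving out any library of either set (up to 0.155). Of 13 genes of coenzyme Q synthesis, 3 (23.1%) rose in IGF-NS libraries and 4 (30.8%) in PDGF-NS, with Coq3 at 0.94 and 0.93. Of 20 genes of the citric acid cycle and pyruvate use, 3 (15%) and 6 (30%) rose, with Dld, a shared subunit of the dehydrogenases, at 0.85 and 0.81. Of 10 carriers and porins, 2 (20%) rose in IGF-NS libraries, and 5 (50%) rose and 1 fell in PDGF-NS, the one that fell being Ucp2 (-1.08, adjusted p = 0.0026). Of 22 import genes, 3 (13.6%) and 6 (27.3%) rose.

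Nuclear regulators of respiratory genes went both ways. Of 21 tested, 7 (33.3%) rose and 2 fell in IGF-NS libraries, and 7 (33.3%) rose and 4 fell in PDGF-NS, beside 17.4% and 20.7% of all genes that rose and 7.48% and 10.2% that fell. Gabpa and Gabpb1, the subunits of GABP, rose in both sets, Gabpa from 5.07 ± 0.425 FPKM to 7.39 ± 0.426 and 9.01 ± 0.677 (SD, n = 3), by 0.47 and 0.72 (adjusted p = 0.023 and 0.002). The IGF-NS call of Gabpa was lost without LH-NS-2, IGF-NS-1 or IGF-NS-3 and under median ratio or quantile scaling (up to 0.145). TFB2M, a factor that starts transcription of mitochondrial DNA, rose by 0.72 and 0.91. Pprc1, a coactivator of NRF1, fell by 0.50 and 1.15 on the log2 scale (adjusted p = 0.029 and 0.00024) and was lower in PDGF-NS than in IGF-NS, a call lost without PDGF-NS-3 (adjusted p = 0.051). Polrmt, the RNA polymerase of mitochondria, fell in both sets (-0.64 and -0.72). In IGF-NS, leaving out LH-NS-1, IGF-NS-1 or IGF-NS-2 ended both calls, as did LH-NS-3 for Pprc1 and LH-NS-2 for Polrmt (up to 0.105 and 0.109). In PDGF-NS that of Polrmt was lost without LH-NS-1 or PDGF-NS-1 (up to 0.057). Esrra, which encodes ERRA, did not pass against control in PDGF-NS (0.56, adjusted p = 0.0504).

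Genes close to the level rule and below it were few. Just inside it were Atp5s (mean 1.53 FPKM), Cox4i2 (2.86), Ndufa4l2 (3.51) and Cox6b2 (3.54), and just outside were Cox8b (0.118), Ndufb4l1 (0.0583) and Cox8c (0.0506). Of the 9 rows below the level, 6 were listed at 0 in every library: Cox7b, Ndufa1, Ndufb11, NDUFB4, Ndufb3l and Cox6c-ps1. Cox7b, Ndufa1 and Ndufb11 encode subunits that the working complexes need, and RefSeq (GRCr8) places them on the X chromosome. Of 596 rows of the table that RefSeq places there, 526 (88.3%) were at 0 in every library, against 10.3 to 26.8% over the 20 autosomes. The 9 rows for transcripts of the mitochondrial genome were also listed at 0, so the subunits encoded there were not measured here. A listed 0 for these genes is therefore not read as absence of expression.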

How the data were processed

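RNA of S31 cells was sequenced in 9 libraries (3 LH-NS, 3 IGF-NS and 3 PDGF-NS). Per the labels' protocols, 1 µg of total RNA taken with Trizol went into each library, made with the Lexogen SENSE mRNA kit. The authors deposited FPKM, one value for each gene in each library, made with GSNAP and Cufflinks per the submitters' processing notes. Their versions and settings, the build and the annotation were not given in the sources used here. FPKM are not counts, so the reads behind a value are unknown and no count model was fitted. Cufflinks may split reads between near-identical genes.

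Libraries were assigned by the column name in each record. Of 26407 rows, 4 all-zero rows of duplicated identifiers and 4 genes with failed estimates (10 cells) were left out. The 11376 genes averaging 1 FPKM or more were tested with limma 3.58.1 (R 4.3.3) on log2(FPKM + 1), with variances that follow the mean, all 9 libraries in one fit and 3 two-sided contrasts. Benjamini-Hochberg adjustment ran over all 11376 genes of a contrast, and genes under 0.05 were called. This scale understates the fold changes of low genes. The script was tested on simulated data.

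The 82 genes, the lists and the motifs were chosen with earlier results of these data known. Genes were named by a rule: the 2 called genes of a complex or list with the largest rise or fall, the catalytic core, alternative forms, and the 5 other genes most like the set. Most other called genes of the 82 are also named, chosen after their values were seen. One gene enters the counts but is not reported here. Promoters are RefSeq's (GRCr8). Alternatives covered the pseudocount, the level filter, scaling, the variance model, a replicate block, the groups fitted and each library left out. Leaving out both LH-NS-1 and IGF-NS-3 was added after seeing the data.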

Additional observations from a re-analysis of the deposited data

How the results depend on the processing

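Of 1877 results for single genes of the set under alternatives, 1557 kept their direction and side of the threshold, 175 lost a call, 12 gained one, and 133 values without a call moved. For 29 genes outside the set (of the pathway lists and the markers), 1338 of 1460 results kept theirs, 83 lost a call, 12 gained one and 27 without a call moved. None of these 1877 and 1460 results reversed a called direction. The count of genes that rose in IGF-NS against control (16) was 9 with no filter on low values and 8 with only the 2 groups compared in the fit. It was 5 with median ratio scaling (10.1% of all genes) and 10 with a replicate block (14.9% of all genes). On leaving out single libraries it was 5 to 15. In PDGF-NS against control (19) it was 11 to 20 on leaving out single libraries. In PDGF-NS against IGF-NS (6) it was 3 with the replicate block (7.23% of all genes) and 2 to 6 on leaving out single libraries. Genes that were lower numbered 1 in IGF-NS against control with median ratio scaling (10.7% of all genes). They also numbered 1 with LH-NS-1 and IGF-NS-3 both left out (8.24% of all genes), and 0 to 1 on leaving out single libraries. In PDGF-NS against control they numbered 1 with median ratio scaling, 1 with quantile normalization, 2 with one common sum and 1 with both libraries left out. Of all genes, 14.8%, 15.4%, 14.8% and 10.8% were lower in these fits. In PDGF-NS against IGF-NS they numbered 4 with both left out (9.49% of all genes) and 1 to 2 on leaving out single libraries. With both left out, 15, 23 and 8 genes were higher in the 3 comparisons, beside 17.1%, 22.1% and 10.9% of all genes.

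Medians moved with scaling, with the level filter and with single libraries. In IGF-NS against control, median ratio scaling gave 0.17 for the 82 genes, 0.24 for complex I, 0.059 for complex II and 0.24 for complex V. Leaving out both libraries gave 0.19 for the 82 genes and 0.135 for all genes. Leaving out single libraries gave 0.28 to 0.47 for complex I, -0.081 to 0.46 for complex III and 0.26 to 0.48 for complex V. In PDGF-NS against control, median ratio scaling, quantile normalization and one common sum gave 0.19, 0.18 and 0.18 for the 82 genes, 0.15, 0.15 and 0.14 for complex I, 0.028, 0.02 and 0.02 for complex II, and 0.19, 0.20 and 0.18 for complex V. Leaving out both libraries gave 0.021 for complex II, 0.25 for complex III and 0.58 for complex IV, and single libraries gave 0.021 to 0.246, 0.25 to 0.62 and 0.58 to 1.02. Complex IV had 0.58 with a pseudocount of 5 and 0.16 with a mean of at least 5 FPKM. In PDGF-NS against IGF-NS, one common sum gave -0.11 for the 82 genes, -0.13 for complex I, -0.20 for complex II and -0.19 for complex V. The cause of these differences was not tested.

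Deviations of same-numbered libraries from their sets had correlations of 0.17, 0.253 and -0.276 (IGF-NS and control). They were -0.115, -0.187 and -0.061 for PDGF-NS and control, and -0.117, -0.074 and 0.066 for the treated sets. The signs differ, and with 3 libraries a set these values cannot decide whether replicate numbers pair the libraries. With the replicate block, 10, 16 and 3 genes (12.2%, 19.5% and 3.66%) were higher in the 3 comparisons, against 16, 19 and 6 without it. Of all genes tested, 14.9%, 18.9% and 7.23% were higher with the block, against 17.4%, 20.7% and 8.33% without it. Depth could not be weighed, since FPKM do not give it, and 3 libraries a set limit what can be called.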

Other observations

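Among the genes of protein import into mitochondria, Pam16, a part of the import motor, rose in PDGF-NS against control from 52.5 ± 11.2 to 112 ± 14.5 FPKM (SD, n = 3), by 1.09 on the log2(FPKM + 1) scale (limma adjusted p = 0.0025), and did not pass in IGF-NS. Hspa9, the chaperone of that motor, rose in both comparisons, from 99.4 ± 9.08 FPKM to 149 ± 18.5 in IGF-NS and 143 ± 7.93 in PDGF-NS (SD, n = 3, adjusted p = 0.011 and 0.013), calls lost without IGF-NS-1 and without PDGF-NS-3 respectively (adjusted p = 0.053 and 0.056). Suclg2, a subunit of succinyl-CoA synthetase, rose in IGF-NS (0.71, adjusted p = 0.003) and was lower in PDGF-NS than in IGF-NS (-0.44, adjusted p = 0.034), a call lost on leaving out any library of either set except IGF-NS-3 (up to 0.119). GPD2, which feeds electrons from glycerol phosphate to ubiquinone, rose in PDGF-NS (0.80, adjusted p = 0.0063) from 2.05 ± 0.392 to 4.31 ± 0.774 FPKM (SD, n = 3), and its IGF-NS libraries had 1.97 ± 0.132.

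The 5 genes outside the set whose levels followed its mean log2 level most closely over the 9 libraries were Dbi (Pearson r 0.973), Psmb3 (0.971), Txndc17 (0.97), Mettl10 (0.969) and Slc7a6os (0.967). They were picked as the highest of all genes tested, and the points share libraries and scaling, so these values are a description.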
